A study of Mus musculus with 12 samples.

Results

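Group 2 innate lymphoid cells (ILC2s) of the mouse lung were examined for 9 genes that rebuild arginine, start polyamine synthesis or carry amino acids across the plasma membrane. These were *Odc1*, *Ass1*, *Slc7a1*, *Slc7a5*, *Slc7a8*, *Slc3a2*, *Slc1a5*, *Slc38a1* and *Slc38a2*, taken by name. All 9 were among the 24346 genes listed in each of the 12 libraries. Levels are in FPKM, the fragments mapped to a gene divided by transcript length and library size, so that levels of different genes can be set side by side. All 9 genes passed the filter for testing, a mean of at least 0.5 FPKM over the 12 libraries, as did 11395 genes of the series.

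Ornithine decarboxylase, the product of *Odc1*, turns ornithine into putrescine, the precursor of the polyamines spermidine and spermine, which dividing cells are known to need. Lymphocytes take up arginine, leucine and glutamine through solute carriers, some of which work only as a light chain that carries the substrate joined to a heavy chain that brings it to the cell surface.

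RNA was sequenced from ILC2s that the study's methods describe as CD45-positive, lineage-negative, Thy1.2-positive and ST2-positive cells sorted from lungs of C57BL/6J mice 7 to 12 weeks old, where the labels give C57BL/6. The 4 groups, each of 3 libraries, were WT mice given PBS, *Sema6d*-deficient mice (labelled 6DKO) given PBS, WT mice given IL-33, and 6DKO mice given IL-33. Dosing was into the nose for 3 days. IL-33 is an epithelial cytokine to which ILC2s respond through ST2, and PBS is its vehicle. The labels give 50 ng of the recombinant mouse cytokine, whereas the study's methods give a higher dose. The deletion in 6DKO mice is in the whole body, so that other cells around the ILC2s carry it too. The labels do not say whether a library came from 1 mouse or from pooled mice, and p-values measure the spread between these libraries.

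The targeted gene was read first. *Sema6d*, which encodes a transmembrane semaphorin and lies at chr2:124089969-124667770 in GRCm38, had PBS levels of 27.5, 46.1 and 37.5 FPKM in WT libraries, against 29.0, 22.9 and 19.8 FPKM in 6DKO libraries. Its IL-33 levels were 19.7, 35.5 and 28.7 FPKM in WT, against 15.4, 13.6 and 13.8 FPKM in 6DKO libraries. The 6DKO values lay lower on average but not at 0, the genotypes overlapped under PBS, and they did not overlap under IL-33. The difference did not pass the test in either treatment (limma, log2 fold change −0.60, SE 0.32, adjusted p = 0.463 under PBS; −0.89, SE 0.32, adjusted p = 1 under IL-33). Its 95% interval was −1.29 to 0.093 under PBS and −1.58 to −0.20 under IL-33. For this gene alone, the unadjusted limma p was 0.084 under PBS and 0.0158 under IL-33. A gene-level value does not show which exons the RNA covered, so these values do not check the genotype, and 6DKO is used below as the label.

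All 10 ILC2 markers examined, among them *Gata3*, *Rora*, *Il1rl1* and *Il7r*, exceeded 1 FPKM in all 12 libraries, and their summed level, of which *Id2* made the largest part, was 3840 to 6181 FPKM. Of these, *Il2ra* was lower in every IL-33 library than in any PBS library (18.98 to 47.5 against 96.2 to 132 FPKM) and *Klrg1* was higher (541 to 752 against 141 to 498 FPKM). Read totals are unknown, since the files hold FPKM alone. The commonest ratio between libraries among weakly expressed genes, all under 3 FPKM throughout, gave relative depths of 0.739 to 0.998 for PBS and 0.968 to 1.39 for IL-33 libraries, in units of WT IL-33 replicate 3. The PBS libraries were also less alike: across the genes tested, which are not independent replicates, Pearson's r between libraries of a group was 0.761 to 0.818 under PBS and 0.934 to 0.95 under IL-33. Zeros were common at moderate levels. Each PBS library listed 169 to 641 of the 3617 genes that averaged 5 to 20 FPKM at 0, and each IL-33 library 25 to 50 of them, so that a 0 is given below only as listed. The PBS libraries thus limit the precision of every contrast that uses them, and most of all for the members of low level. The fit shares 1 estimate of a gene's spread over the 4 groups, so the PBS spread also enters the genotype contrast under IL-33. Likewise the narrower IL-33 spread enters the genotype contrast under PBS, where p-values can be too small and intervals too narrow. The median SD on the log2 scale was 0.66 in WT PBS and 0.70 in 6DKO PBS libraries. It was 0.29 in WT IL-33 and 0.28 in 6DKO IL-33 libraries.

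Because *Ass1* is also known from macrophages, markers of other cell types were summed in each library. Of 18 macrophage and monocyte markers, 14 exceeded 1 FPKM in at least 1 library. Their sum was 7.79, 1.20 and 17.2 FPKM in WT PBS, 5.84, 231 and 10.9 in 6DKO PBS, 6.73, 10.3 and 1.10 in WT IL-33, and 10.5, 439 and 152 in 6DKO IL-33 libraries. Thus 6DKO PBS replicate 2 and 6DKO IL-33 replicates 2 and 3 stood apart, with *Lyz2* (112 FPKM) the most abundant marker in the first and *Chil3* (394 and 83.1 FPKM) in the others. Of the 18 markers, 8, 8 and 6 exceeded 1 FPKM in these 3 libraries, against 0 to 4 in each of the others. *Marco*, *Mrc1* and *Fcgr1* stood at 7.28, 6.84 and 5.25 FPKM in 6DKO PBS replicate 2 and were listed at 0 in the other pair, *C1qb* stood at 5.47 and 2.30 FPKM in 6DKO IL-33 replicates 2 and 3, and *Adgre1* and *Csf1r* were listed at 0 in all 3. Some markers were highest in other libraries. Among them were *Cd68* in 6DKO IL-33 replicate 1 (4.87 FPKM), *Cd14* in WT PBS replicate 1 (7.40) and *Adgre1* in 6DKO PBS replicate 3 (3.06). The lineage antibodies of the sort, by the study's methods, included those to F4/80 and CD11c, the products of *Adgre1* and *Itgax*, and *Itgax* stood at 2.83 FPKM in 6DKO PBS replicate 2. *Ass1* stood at 1.87 FPKM in 6DKO PBS replicate 2, between the other 6DKO PBS libraries (0.000384 and 5.53), and at 3.68 and 9.16 FPKM in 6DKO IL-33 replicates 2 and 3, on either side of replicate 1 (4.52). Calls in 6DKO mice are therefore given with and without these 3 libraries together, an alternative chosen after the marker sums were seen.

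The sums of the other marker lists were lower than those of the ILC2 markers in all 12 libraries. They were 0 to 2.07 FPKM for eosinophils, 5.48 to 12.9 for neutrophils (the most abundant being *Cxcr2*), 0 to 26.9 for B cells (*Cd79b*), 0 to 9.81 for T cells (*Cd3e*), 1.32 to 20.9 for endothelial cells (*Pecam1*) and 0 to 4.51 for mesenchymal cells. The NK cell sum was 67.4 FPKM in 6DKO PBS replicate 2 and at most 2.64 elsewhere, and the epithelial sum was 101 FPKM in 6DKO IL-33 replicate 3, of which *Sftpc* made 97.2, and 4.26 to 54.0 elsewhere. The mast cell and basophil sum was 42.9 to 89.3 FPKM under PBS and 17.8 to 41.9 FPKM under IL-33, lower in all 6 IL-33 libraries than in any PBS library. Of 5 mast cell and basophil markers, 2 exceeded 1 FPKM in any library, the most abundant was *Cpa3*, and *Mcpt8* and *Mcpt4* were listed at 0 in all 12. Of the 5 epithelial markers, *Epcam* was lower in all 6 IL-33 libraries than in any PBS library (0 to 8.71 against 16.4 to 54.0 FPKM), while *Cdh1* overlapped between the treatments (0 to 6.78 under PBS, 2.72 to 6.35 under IL-33), as did *Scgb1a1* (0 to 22.4 and 0 to 11.3). *Sftpc* and *Sftpb* were listed at 0 in all 6 PBS libraries.

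The 9 genes spanned a wide range of levels. *Odc1* alone made 57.8% to 67.7% of the summed FPKM of the 9 genes in PBS libraries and 56.4% to 68.3% in IL-33 libraries. It ranked 124 to 213 among all genes of a library under PBS and 136 to 293 under IL-33, where rank 1 is the highest level. By group mean, *Slc3a2* came next in all 4 groups. It was followed by *Slc7a8*, *Slc1a5*, *Slc38a2* and *Slc38a1* in the PBS groups and by *Slc1a5*, *Slc38a2*, *Slc7a8* and *Slc38a1* in the IL-33 groups, while *Ass1*, *Slc7a1* and *Slc7a5* never exceeded 15.3 FPKM.

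**Figure D1:**
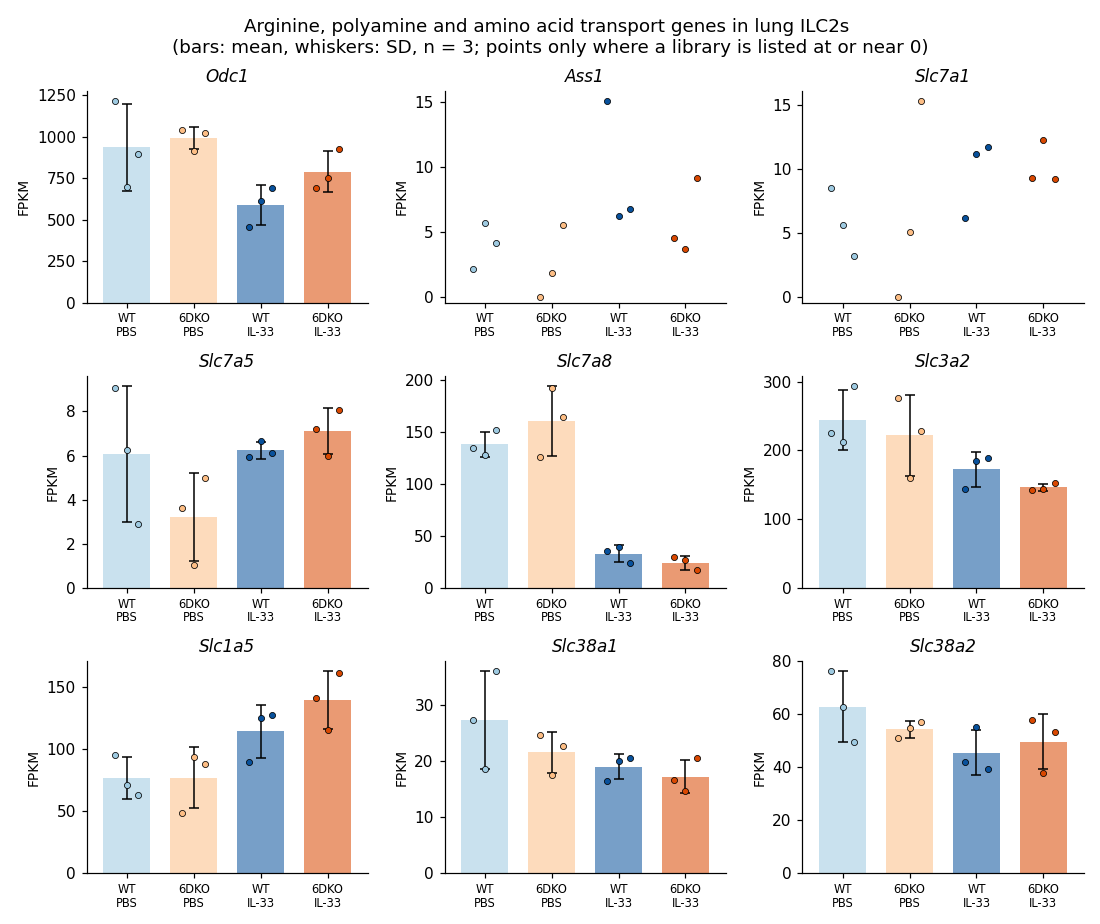
Level of each of the 9 genes, in FPKM on linear axes that differ between panels, in the 4 groups. Points are libraries, bars are group means and whiskers are SDs (n = 3), and *Ass1* and *Slc7a1*, each with a library listed at or near 0, are shown as points alone. *Slc7a8* stood lower in every IL-33 library than in every PBS library.

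IL-33 was compared with PBS in each genotype to see how RNA of these genes changes when lung ILC2s are activated in the animal. In WT mice, *Slc7a8* fell to 0.239 of its PBS level in mean FPKM, and it alone, 1 of 9 genes, passed the test (limma on log2(FPKM + 1), adjusted p under 0.05 over all genes tested). Over all genes, 486 (4.27%) passed, 303 (2.66%) of them higher and 183 (1.61%) lower after IL-33. In 6DKO mice, *Slc7a8* again fell, to 0.152 of its PBS level, so that 1 of 9 genes passed, beside 324 (2.84%) of all genes, 199 (1.75%) higher and 125 (1.1%) lower. In bulk samples such as these, fewer cells that express a gene and less of its RNA per cell cannot be told apart. The *Slc7a8* call in 6DKO mice had an exception, given below.

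The 9 genes did not move one way. In each genotype, 4 of 9 had a positive and 5 a negative log2 fold change. Their median was −0.45 in WT and −0.15 in 6DKO mice, beside 0.16 and 0.14 over all genes tested. At an unadjusted p under 0.05 stood 3 of 9 genes in WT (*Odc1*, *Slc7a8* and *Slc3a2*; 17.6% of all genes) and 3 of 9 in 6DKO mice (*Slc7a8*, *Slc3a2* and *Slc1a5*; 15.2% of all genes). The treatments did not overlap for 4 of 9 genes in each genotype, against 25.1% of all genes in WT and 22.7% in 6DKO mice.

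The shift of all genes depended on the scaling. With quantile normalization the median over all genes became −0.04 in WT and −0.02 in 6DKO mice, and calls split into 248 higher and 231 lower in WT and 136 higher and 134 lower in 6DKO mice. Set against the medians of 0.16 and 0.14, *Slc7a8* lay at −2.22 in WT and −2.83 in 6DKO mice on the log2 scale.

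*Odc1*, at chr12:17544794-17551505, encodes ornithine decarboxylase, the rate-limiting enzyme of polyamine synthesis. It stood at 1213, 697 and 894 FPKM in WT PBS and 459, 615 and 690 FPKM in WT IL-33 libraries. In 6DKO mice it stood at 1039, 913 and 1019 FPKM under PBS and 692, 749 and 927 FPKM under IL-33. The treatments did not overlap in WT, by a narrow margin, and overlapped in 6DKO mice. Neither difference passed the test (limma, log2 fold change −0.65, SE 0.21, 95% interval −1.10 to −0.20, adjusted p = 0.112 in WT; −0.34, SE 0.21, −0.79 to 0.11, adjusted p = 0.490 in 6DKO). Without WT PBS replicate 2, the lowest of its group, the WT difference was −0.85 and passed (limma adjusted p = 0.0415; 0.0415 to 0.368 over all alternatives). The 6DKO difference was −0.57 without the 3 libraries of high macrophage marker sums, and −0.46 to −0.25 with each library left out.

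*Ass1* encodes argininosuccinate synthase, which acts in the rebuilding of arginine from citrulline. It was low throughout, at 2.13, 5.72 and 4.13 FPKM in WT PBS, 0.000384, 1.87 and 5.53 in 6DKO PBS, 15.1, 6.21 and 6.81 in WT IL-33 and 4.52, 3.68 and 9.16 in 6DKO IL-33 libraries. The WT treatments were apart and the 6DKO treatments overlapped. Its log2 fold change, 1.02 in WT and 1.27 in 6DKO mice, had an SE of 0.69 and did not pass the test (limma adjusted p = 0.50 and 0.428). It was 0.66 in WT without WT IL-33 replicate 1, and in 6DKO mice 0.57 without 6DKO PBS replicate 1 and 1.92 without 6DKO PBS replicate 3.

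*Slc3a2*, at chr19:8706882-8723369, encodes the heavy chain 4F2hc (CD98), which pairs with light chains of the SLC7 family. It stood at 226, 212 and 293 FPKM in WT PBS and 143, 184 and 190 FPKM in WT IL-33 libraries. In 6DKO mice it stood at 277, 160.3 and 229 FPKM under PBS and 143, 143 and 152 FPKM under IL-33. All IL-33 libraries lay below the PBS libraries of the same genotype. The difference did not pass the test (limma, log2 fold change −0.49, 95% interval −0.96 to −0.02, adjusted p = 0.256 in WT; −0.56, −1.03 to −0.10, adjusted p = 0.228 in 6DKO).

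*Slc7a8*, at chr14:54722209-54781946 on the minus strand, encodes LAT2, a light chain of *Slc3a2* that exchanges neutral amino acids. Its PBS levels were 134, 127 and 151 FPKM in WT and 125, 192 and 164 FPKM in 6DKO libraries. Its IL-33 levels were 35.4, 39.5 and 23.9 FPKM in WT and 29.3, 27.0 and 16.7 FPKM in 6DKO libraries. The lowest PBS library was far above the highest IL-33 library, and the genotypes overlapped within each treatment. The group means ran from 160.3 ± 33.3 (SD, n = 3) in 6DKO PBS and 138 ± 12.3 in WT PBS to 32.9 ± 8.13 in WT IL-33 and 24.3 ± 6.68 FPKM in 6DKO IL-33 libraries, and neighbours within a treatment overlapped.

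The *Slc7a8* difference was larger in absolute log2 fold change than that of the other 8 genes in each genotype. It was −2.06 in WT (SE 0.28, 95% interval −2.66 to −1.45, limma adjusted p = 0.00162) and −2.69 in 6DKO mice (SE 0.28, −3.29 to −2.08, limma adjusted p = 0.000481), with 3 of 3 libraries lower in each. The WT call held in all 22 alternatives (limma adjusted p 0.00147 to 0.0128). The 6DKO call held in 21 of 22 (adjusted p 0.000398 to 0.0722), the exception being the fit without the 3 libraries of high macrophage marker sums, where a single 6DKO IL-33 library was left (log2 fold change −2.25, adjusted p = 0.0722). The mast cell and basophil sum, nearly all of it *Cpa3*, was lower after IL-33 as well. So were the epithelial marker *Epcam* and the ILC2 marker *Il2ra*, each lower in every IL-33 library than in any PBS library. The part of these in the *Slc7a8* difference was not tested. The lineage antibodies of the sort included clone MAR-1, listed in the study's methods as FcγRIα and known to bind FcεRIα, which mast cells and basophils carry. Whether any such cells remained after the sort was not tested.

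*Slc7a5*, at chr8:121881150-121907694, encodes LAT1, the light chain best known for carrying leucine into activated lymphocytes. It stood at 9.06, 6.24 and 2.92 FPKM in WT PBS, 3.64, 1.03 and 4.96 in 6DKO PBS, 5.93, 6.66 and 6.14 in WT IL-33 and 7.20, 6.00 and 8.08 in 6DKO IL-33 libraries. The treatments overlapped in WT and were apart in 6DKO mice. The log2 fold change was 0.14 in WT (95% interval −1.02 to 1.29, limma adjusted p = 0.940), and ran from −0.24 (without WT PBS replicate 3) to 0.44 (without WT PBS replicate 1). It was 1.07 in 6DKO mice (−0.08 to 2.22, limma adjusted p = 0.370), and 0.61 without 6DKO PBS replicate 2.

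Set together, the light chains known to pair with *Slc3a2* (*Slc7a5*, *Slc7a6*, *Slc7a7*, *Slc7a8*, *Slc7a10* and *Slc7a11*) had a summed level of 134 to 208 FPKM in PBS and 40.1 to 65.9 FPKM in IL-33 libraries. *Slc7a8* made 86.9% to 95.1% of that sum under PBS and 41.7% to 60.02% under IL-33. Of the rest, *Slc7a6*, which encodes y+LAT2, had the highest level in all libraries but WT PBS replicate 2, where *Slc7a5* did. *Slc7a6* stood at 0.351 to 19.3 FPKM under PBS and 8.92 to 21.6 FPKM under IL-33. *Slc7a10* was listed at 0 in all 12 libraries, and *Slc7a7* and *Slc7a11* did not exceed 2.17 FPKM. The heavy chain's level was 0.770 to 1.94 times the light chain sum in PBS libraries and 2.28 to 4.61 times in IL-33 libraries. The sums and ratios were not tested.

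**Figure D2:**
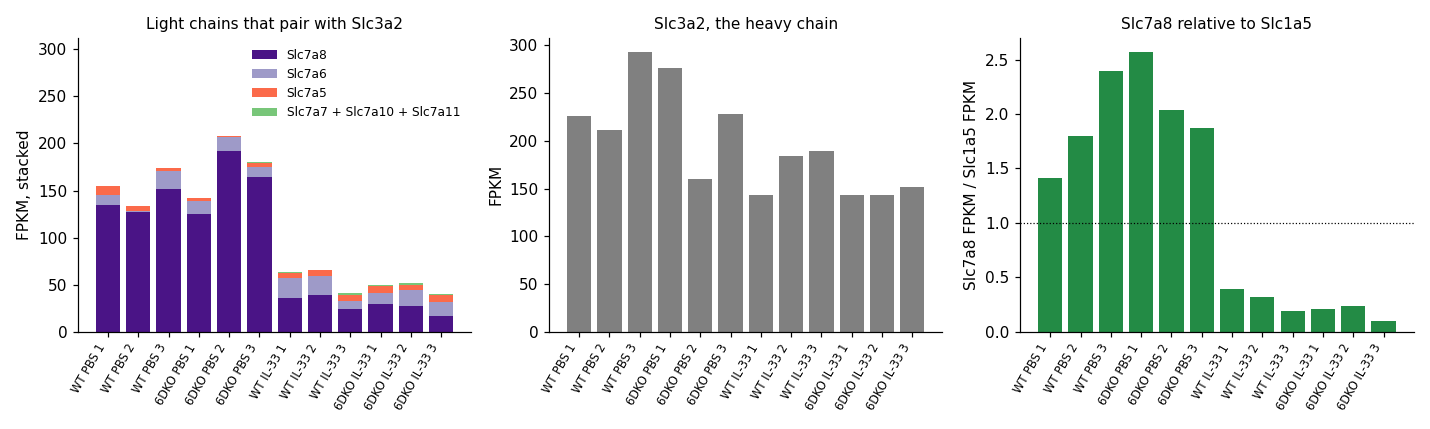
Left, FPKM of the light chain genes that pair with *Slc3a2*, stacked, in each of the 12 libraries. Middle, *Slc3a2* FPKM, and right, the ratio of *Slc7a8* to *Slc1a5* FPKM, with a dotted line at 1. The light chain sum did not exceed 65.9 FPKM in any IL-33 library and was at least 134 FPKM in every PBS library, and the *Slc7a8* to *Slc1a5* ratio was above 1 in PBS libraries alone.

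*Slc7a1*, at chr5:148327410-148399904, encodes CAT1, a carrier of arginine, lysine and ornithine that needs no heavy chain. It stood at 8.47, 5.64 and 3.18 FPKM in WT PBS, was listed at 0 and stood at 5.04 and 15.3 in 6DKO PBS, and stood at 6.14, 11.2 and 11.7 in WT IL-33 and 9.26, 12.3 and 9.19 in 6DKO IL-33 libraries. The treatments overlapped in both genotypes. With an SE of 0.82, its log2 fold changes of 0.69 in WT and 1.27 in 6DKO mice did not pass the test (limma adjusted p = 0.734 and 0.508). They were 0.38 in WT without WT PBS replicate 3, and in 6DKO mice 0.17 without 6DKO PBS replicate 1 and 2.18 without 6DKO PBS replicate 3.

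*Slc1a5*, at chr7:16781340-16798274, encodes ASCT2, a carrier of glutamine and other neutral amino acids. It stood at 95.5, 70.9 and 63.3 FPKM in WT PBS and 90.1, 125 and 127 FPKM in WT IL-33 libraries. In 6DKO mice it stood at 48.7, 93.9 and 87.9 FPKM under PBS and 142, 115 and 162 FPKM under IL-33. The treatments overlapped in WT and were apart in 6DKO mice. Neither difference passed the test (limma, log2 fold change 0.58, 95% interval −0.04 to 1.19, adjusted p = 0.320 in WT; 0.90, 0.28 to 1.51, adjusted p = 0.134 in 6DKO). *Slc7a8* exceeded *Slc1a5* in 6 of 6 PBS libraries and *Slc1a5* exceeded *Slc7a8* in 6 of 6 IL-33 libraries, the ratio of *Slc7a8* to *Slc1a5* FPKM being 1.41 to 2.57 and 0.103 to 0.393.

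*Slc38a1* and *Slc38a2* lie side by side on chromosome 15 (96571418-96642913 and 96687392-96699730) and encode SNAT1 and SNAT2, which bring in glutamine and alanine together with sodium. *Slc38a1* ranged from 17.6 to 36.0 FPKM under PBS and from 14.6 to 20.5 FPKM under IL-33. *Slc38a2* ranged from 49.5 to 76.2 FPKM under PBS and from 38.0 to 57.7 FPKM under IL-33. The treatments overlapped for both genes in both genotypes. The log2 fold change of *Slc38a1* was −0.46 in WT and −0.31 in 6DKO mice (limma adjusted p = 0.512 and 0.708), and that of *Slc38a2* was −0.45 and −0.15 (limma adjusted p = 0.403 and 0.841), with the last at 0.03 without 6DKO IL-33 replicate 2 and −0.26 without 6DKO IL-33 replicate 1. *Slc38a1* in WT was −0.70 without WT PBS replicate 2 and −0.25 without WT PBS replicate 3, and in 6DKO mice −0.20 without 6DKO IL-33 replicate 2.

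**Figure D3:**
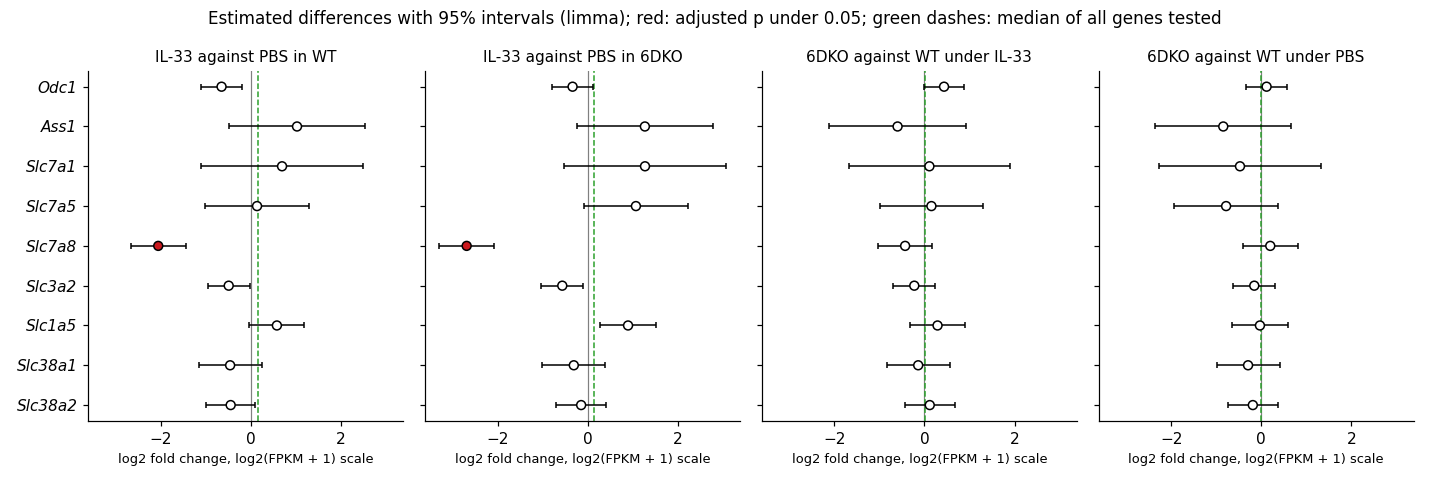
Log2 fold change of each of the 9 genes on the log2(FPKM + 1) scale, with its 95% interval, in 4 contrasts. Red points passed the test (limma adjusted p under 0.05 over all genes tested), a grey line marks 0 and a green dashed line the median of all genes tested. *Slc7a8* passed in both contrasts of IL-33 with PBS, and no gene passed between the genotypes.

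The genotypes were then compared within each treatment, to ask whether these genes differ between ILC2s labelled 6DKO and WT, activated or at rest. Under IL-33, 0 of 9 genes passed the test and 0 of 9 had an unadjusted p under 0.05, beside 1 gene (0.00878%) and 1.83% of all genes (limma). That single gene, named after its values were seen, was *Sh3bgrl3*, lower in 6DKO libraries (log2 fold change −0.97, limma adjusted p = 0.00426). Its call was lost with quantile normalization, without the variance trend and with only the groups compared. It was also lost without WT IL-33 replicate 2 or without 6DKO IL-33 replicate 1. With array weights, 30 genes passed as higher and 25 as lower in 6DKO libraries. Under PBS, 0 of 9 passed and 0 of 9 had an unadjusted p under 0.05, beside 66 genes (0.579%; 38, or 0.333%, higher and 28, or 0.246%, lower in 6DKO) and 12.9% of all genes (limma). Of the 9 log2 fold changes, 5 were positive under IL-33 (median 0.11, against 0.01 over all genes) and 2 under PBS (median −0.19, against 0.00357 over all genes).

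Under IL-33 the genotypes were apart for 1 of 9 genes, *Odc1*, against 14.2% of all genes. Its lowest 6DKO library (692 FPKM) lay just above its highest WT library (690 FPKM), and the difference did not pass the test (limma, log2 fold change 0.43, 95% interval −0.02 to 0.88, adjusted p = 1; 0.27 without WT IL-33 replicate 1). The interval was −1.04 to 0.18 for *Slc7a8*, −0.70 to 0.24 for *Slc3a2* and −0.32 to 0.90 for *Slc1a5*. Under PBS the genotypes overlapped for all 9 genes, whereas 8.63% of all genes were apart. There the interval was −0.33 to 0.57 for *Odc1* and −0.41 to 0.81 for *Slc7a8*. For *Ass1*, *Slc7a1* and *Slc7a5* each interval of a genotype difference was more than 2 log2 units wide, so that it did not bound the difference closely.

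The interaction of genotype and treatment asks whether the response to IL-33 differed between the genotypes. It passed for 0 of 9 genes (0 of 9 at an unadjusted p under 0.05), beside 2 genes (0.0176%) and 5.57% of all genes. The limma adjusted p of the 9 genes was 0.897 to 0.979. The interaction was −0.63 for *Slc7a8* (95% interval −1.49 to 0.23) and 0.32 for *Odc1* (−0.32 to 0.95) on the log2 scale. With each library left out, that of *Slc7a8* was −0.84 to −0.39 (nearest to 0 without 6DKO IL-33 replicate 3) and that of *Odc1* 0.11 (without WT PBS replicate 1) to 0.51 (without WT PBS replicate 2). Without the 3 libraries of high macrophage marker sums they were −0.20 and 0.080. The larger *Slc7a8* fold in 6DKO mice, and the *Odc1* difference that left the treatments apart in WT alone, were thus not shown to differ between the genotypes.

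Other genes of the same pathways were read from 4 lists. Genes that passed the filter only through 1 group, their mean over the other 9 libraries being under 0.5 FPKM, are left out of the counts and medians of these lists. Of 17 enzymes and carriers of arginine, ornithine and proline metabolism, 10 were tested. With *Gatm*, described next, left out, 9 were counted and 0 passed in any of the 5 contrasts (limma), with 2, 1, 0, 1 and 0 of 9 at an unadjusted p under 0.05, against 17.6%, 15.2%, 1.83%, 12.9% and 5.57% of all genes. These are, in order, IL-33 against PBS in WT and in 6DKO mice, the genotypes under IL-33 and under PBS, and the interaction. The median log2 fold change of these 9 after IL-33 was 0.12 in WT and 0.23 in 6DKO mice, against 0.16 and 0.14 over all genes. The most abundant of the list in each group were *Oat*, which links ornithine to proline and glutamate (37.2 to 130.5 FPKM under PBS, 24.6 to 36.7 under IL-33), and *Asl*, which cleaves argininosuccinate (15.0 to 55.6 and 26.7 to 45.8 FPKM). The inducible nitric oxide synthase gene, *Nos2*, did not exceed 0.182 FPKM, and *Otc*, *Cps1* and *Agmat* were listed at 0 in all 12 libraries.

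*Gatm*, which encodes the enzyme that passes the amidino group of arginine to glycine in creatine synthesis, was listed at 0 in 9 libraries and stood at 0.813, 2.47 and 2.90 FPKM in the 6DKO IL-33 libraries. Its mean over the 12 libraries was 0.515 FPKM, all of it from that group, so a gene with this mean had to differ there and no test of it is given. *Gatm* lies on chromosome 2, 1.48 Mb from *Sema6d*.

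Of 21 genes of polyamine synthesis, turnover and hypusine formation in the files, 19 were tested, 18 were counted (without *Sat2*) and 0 passed in any of the 5 contrasts (limma), with 5, 1, 1, 2 and 2 of 18 at an unadjusted p under 0.05, in the same order, against 17.6%, 15.2%, 1.83%, 12.9% and 5.57% of all genes. For IL-33 against PBS their median log2 fold change was −0.16 in WT and −0.12 in 6DKO mice, against 0.16 and 0.14 over all genes. The most abundant beside *Odc1* were *Eif5a*, the target of the polyamine-derived hypusine modification (917 to 1208 FPKM under PBS, 828 to 1088 under IL-33), and *Oaz1*, whose product, antizyme, sends ornithine decarboxylase to degradation (376 to 614 and 535 to 587 FPKM). The ratio of *Odc1* to *Oaz1* FPKM was 1.57 to 2.51 in PBS and 0.854 to 1.66 in IL-33 libraries.

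Of 48 amino acid transporters, 24 were tested and 18 counted (without *Slc1a4*, *Slc7a4*, *Slc36a1*, *Slc38a5*, *Slc38a11* and *Slc6a14*). *Slc7a8* was the only gene of the list that passed, lower after IL-33 in both genotypes (1 of 18, against 4.27% of all genes in WT and 2.84% in 6DKO mice). In the other 3 contrasts 0 passed (limma), and 0 of the 6 left out passed in any. At an unadjusted p under 0.05 stood 3, 6, 0, 3 and 1 of 18 in the 5 contrasts, in the same order, against 17.6%, 15.2%, 1.83%, 12.9% and 5.57% of all genes. The median log2 fold change of the 18 was 0.17 in WT and 0.09 in 6DKO mice, against 0.16 and 0.14 over all genes. The most abundant by mean over the 12 libraries were *Slc3a2*, *Slc1a5* and *Slc7a8*, of which *Slc7a8* was among the highest 3 in the PBS groups but not in the IL-33 groups. *Slc7a2*, the arginine carrier CAT2 known from macrophages, did not exceed 0.606 FPKM, and 10 transporters were listed at 0 in all 12 libraries.

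Of 43 genes of amino acid sensing and the amino acid response in the files, 36 were tested and 35 counted (without *Chac1*), with a median log2 fold change of 0.43 in WT and 0.18 in 6DKO mice, against 0.16 and 0.14 over all genes. After IL-33, 1 of 35 passed in WT and 3 of 35 in 6DKO mice, all higher, against 4.27% and 2.84% of all genes (2.66% and 1.75% higher). In the other contrasts, the interaction among them, 0 passed (limma). At an unadjusted p under 0.05 stood 7, 7, 0, 10 and 6 of 35 in the 5 contrasts, in the same order, against 17.6%, 15.2%, 1.83%, 12.9% and 5.57% of all genes. *Mthfd2*, a mitochondrial enzyme of folate metabolism, stood at 2.84, 0 and 3.40 FPKM in WT PBS, 0.234, 1.07 and 6.57 in 6DKO PBS, 21.5, 18.9 and 31.0 in WT IL-33 and 34.6, 19.5 and 29.9 in 6DKO IL-33 libraries (log2 fold change 3.24 in WT, limma adjusted p = 0.0262; 3.39 in 6DKO, adjusted p = 0.0290). *Asns*, asparagine synthetase, was listed at 0 in 5 of 6 PBS libraries, the other being WT PBS replicate 3 (7.94 FPKM). It stood at 12.98, 18.5 and 6.82 FPKM in WT IL-33 (limma log2 fold change 2.63, adjusted p = 0.0818) and at 16.2, 16.1 and 12.98 FPKM in 6DKO IL-33 libraries, above 0 in 3 of 3 6DKO libraries against 0 of 3 under PBS (limma adjusted p = 0.0173). *Mthfd2* and *Asns* averaged 14.1 and 7.62 FPKM over the 12 libraries, levels at which PBS libraries listed more genes at 0. The part of these zeros in the calls was not tested. *Got1*, cytosolic aspartate aminotransferase, stood at 9.12, 48.6 and 26.5 FPKM in WT PBS and 55.9, 66.3 and 73.6 in WT IL-33 libraries (1.46, limma adjusted p = 0.377). In 6DKO mice it stood at 0.157 to 10.2 FPKM under PBS and 45.4 to 55.5 under IL-33 (3.36, limma adjusted p = 0.0428). The most abundant of the list in each group were *Lamtor2*, *Lamtor5* and *Atf4*, of which none passed, and *Atf4*, a transcription factor of the amino acid response, stood at 84.2 to 241 FPKM under PBS and 75.3 to 123.5 FPKM under IL-33.

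These calls did not hold throughout, and several were lost with the log2 fold change much the same. That of *Mthfd2* was lost in 8 of 22 alternatives in WT (limma adjusted p 0.0122 to 0.125), among them leaving out WT PBS replicate 2, any WT IL-33 library or 6DKO IL-33 replicate 3 (0.0505 to 0.125), with a log2 fold change of 2.56 to 3.63 when any 1 library was left out. In 6DKO mice it was lost in 11 of 22 (0.0115 to 0.447), among them leaving out 6DKO PBS replicate 1 or 2 or any IL-33 library (0.0522 to 0.127), with a log2 fold change of 2.83 to 4.14. The call of *Asns* was lost without any 1 of the 6DKO IL-33 libraries (limma adjusted p 0.0655 to 0.0746), and that of *Got1* without WT PBS replicate 3 or any 1 of the 6 IL-33 libraries (0.0595 to 0.152), with a log2 fold change of 2.28 (without 6DKO PBS replicate 1, where it passed) to 3.92. Without the 3 libraries of high macrophage marker sums, which left a single 6DKO IL-33 library, these 3 genes did not pass in 6DKO mice, but the differences were as large. The log2 fold change was 3.54 for *Mthfd2* and 3.75 for *Got1* (limma adjusted p = 0.447 and 0.410), and *Asns* stood at 16.2 FPKM in the library left, against 0 under PBS (limma adjusted p = 0.382). Over all alternatives, the adjusted p was 0.00152 to 0.382 for *Asns* (limma, lost in 4 of 22) and 0.0158 to 0.410 for *Got1* (lost in 12 of 22).

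The genes most like *Odc1* were sought among the 7412 genes that averaged at least 5 FPKM, by Pearson's r of log2(FPKM + 1) over the 12 libraries, as a description, since the libraries share treatments and differ in depth. Closest were *Atp2a2* (r = 0.913), a calcium pump of the endoplasmic reticulum, *Irak1* (0.910), a kinase downstream of IL-1 family receptors, *Zfp846* (0.896), *Dusp5* (0.893), a nuclear phosphatase of ERK, and *Gm12505* (0.888). *Dusp5* stood at 176 to 311 FPKM in PBS and 91.3 to 173 FPKM in IL-33 libraries.

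Promoters of 6 of the 9 genes (*Odc1*, *Ass1*, *Slc7a1*, *Slc7a8*, *Slc3a2* and *Slc38a2*; 7 windows of 300 bases, with a pair for *Slc7a1*) were matched by symbol in the RefSeq promoter set of GRCm38.p6. *Slc7a5*, *Slc1a5* and *Slc38a1* had no entry. The motifs searched on both strands were CACGTG (the E-box, held by 7.15% of all 32851 promoters), TGATGNAAN (the C/EBP-ATF composite element, 3.95%), the STAT6 spacing, TTC and GAA with 4 bases between them (6.95%), and the spacing of other STAT factors, TTCNNNGAA (8.30%). *Ass1* held CACGTG, starting 36 bases before the RefSeq start but downstream of the GENCODE gene start (chr2:31470207). A window of *Slc7a1* held TTCNNNGAA as TTCAAAGAA, starting 146 bases before the RefSeq start of that window. This window, chr5:148392766-148393065, lies within the gene as GENCODE places it. No other match was found. The 190 bases upstream of *Slc7a8*, the member that fell most, are shown in lower case since none of the 4 motifs lies in them; they lie at chr14:54781947-54782136 and are written 5′ to 3′ on the minus strand.
*Slc7a8*: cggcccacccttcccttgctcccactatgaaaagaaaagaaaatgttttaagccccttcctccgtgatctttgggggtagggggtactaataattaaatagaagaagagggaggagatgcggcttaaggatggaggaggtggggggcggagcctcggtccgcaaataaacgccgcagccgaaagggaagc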

How the data were processed

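The deposited files hold FPKM per gene symbol, made by the authors from reads mapped to mm10. The study's methods name TopHat and Cuffnorm with a stranded mRNA kit. The submitters' processing notes name TopHat2 2.1.1, Bowtie2 and Cuffdiff 2.2.1, and the labels a SMART-Seq HT kit with a Nextera kit. The annotation is not given in the sources used here. Groups come from the labels. No pair of libraries was identical (0 pairs).

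Genes that averaged at least 0.5 FPKM over the 12 libraries were tested with limma 3.58.1 in R 4.3.3 (lmFit, eBayes with a trend) on log2(FPKM + 1), which understates changes of low genes. The model held the means of 4 groups, with 8 residual degrees of freedom and no covariate. Tests were two-sided, with Benjamini-Hochberg adjustment over all 11395 genes tested. An exact permutation of 3 libraries against 3 cannot give a p below 0.10 and was not used. The model was tested on simulated data. In these, a gene's spread was the same in all 4 groups, unlike in the libraries here. Other values were computed in Python 3.11.15 with numpy 2.4.6, pandas 2.3.3 and scipy 1.17.1, and figures were drawn with matplotlib 3.10.9.

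Named were all 9 members, *Sema6d*, genes of 4 pathway lists that passed the test, the most abundant genes of each list (up to 3), and the 5 genes most like *Odc1*. Cell type markers, light chains of *Slc3a2*, other genes of the lists and *Sh3bgrl3* are named beside these, some chosen after their values were seen. Some genes that the fits include are not reported here. The members and lists were chosen with earlier results of these data known. Gene positions are from GENCODE vM21. No exon of a member overlaps another gene in it.

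Alternatives changed the pseudocount (to 0.1), the filter (none, or at least 2 FPKM on average), the scaling (quantile, or median ratios), the variance prior (no trend), the weighting (array weights) or the model (a block for replicate numbers, or a fit to the compared groups alone), or left out each library in turn. Leaving out 3 libraries of high macrophage marker sums together was chosen after seeing the data.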

Additional observations from a re-analysis of the deposited data

How the results depend on the processing

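Of 42 gene results compared over 22 alternatives (922 comparisons), 871 kept direction and side of the threshold, 36 no longer passed, 1 newly passed and 14 reversed. None of the results that reversed had passed. Where no construction is named below, the cause was not tested. PBS libraries had more zeros and a wider spread, and the groups share 1 estimate of the spread.

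Members called after IL-33 in WT numbered 2 without WT PBS replicate 2, and 1 to 2 with each library left out. In 6DKO mice they numbered 0 without the 3 libraries of high macrophage marker sums, and 1 with each library left out. No member was called between the genotypes or for the interaction in any alternative (0 of 9, limma).

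Over all genes, leaving out each library gave 202 (without WT IL-33 replicate 1) to 691 calls (without 6DKO PBS replicate 1) in WT after IL-33, and 122 (without 6DKO IL-33 replicate 2) to 476 (without 6DKO PBS replicate 2) in 6DKO mice. It gave 0 to 3 calls for the genotypes under IL-33, 20 (without 6DKO IL-33 replicate 1) to 213 (without WT PBS replicate 3) for the genotypes under PBS, and 0 to 25 (without WT PBS replicate 3) for the interaction.

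Without the 3 libraries of high macrophage marker sums, which left 6DKO IL-33 with 1 library assumed to vary like the other groups, calls numbered 31 after IL-33 in 6DKO mice, 21 for the genotypes under IL-33, 10 under PBS and 14 for the interaction. For the genotypes under IL-33, calls numbered 2 with a pseudocount of 0.1, 0 with quantile normalization, 55 with array weights and 0 with only the groups compared. Under PBS they numbered 33 with no filter, 36 with quantile normalization, 1 with array weights, 15 with the replicate block and 1 with only the groups compared. For the interaction they numbered 5 with a pseudocount of 0.1, 7 without the trend and 1 with the replicate block. The block changed no member's call. Deviations of libraries sharing a number correlated at −0.047 to 0.045 across genes, and those of libraries with different numbers at −0.073 to 0.053. These values did not show that the numbers pair samples. They cannot exclude it, since each deviation is taken from a mean of 3 libraries that vary.

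Among the log2 fold changes that reversed, *Slc7a1* between the genotypes under IL-33 was −0.012 without the 3 libraries and −0.16 to 0.26 with each left out. Under PBS, *Slc7a1* was 0.16 with array weights and −1.38 to 0.63 with each left out. *Slc3a2* was 0.061 without the 3 libraries and −0.33 to 0.061 with each left out. *Slc1a5* was 0.13 with array weights and −0.20 to 0.27 with each left out, and *Odc1* was −0.075 to 0.32. After IL-33, *Slc38a2* in 6DKO mice was 0.094 without the 3 libraries and −0.26 to 0.033 with each left out, and *Slc7a5* in WT was −0.24 to 0.44.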
